A study of Mus musculus with 6 samples.

Results

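The genes described here are 39 genes of the cell cycle, listed by name and read from 32286 genes of 3 single-cell mRNA libraries of mouse liver immune cells. Of these, 14 act around DNA synthesis (S genes: Mcm2 to Mcm7, Pcna, Tyms, Tk1, Rrm2, Pclaf, Ccne1, Ccne2 and E2f1) and 23 act in G2 and mitosis (G2/M genes, such as Mki67, Top2a, Cdk1 and Ccnb1). Stmn1 and Hmgb2 accompany proliferation and were put in neither group. All 39 genes had UMIs in each of the 3 libraries, 39437 in mock, 218748 in AAV-sgSCR and 301592 in AAV-sgBaat.

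The libraries came from livers of mice on day 30 after infection, and each pooled 3 tumor samples. The groups were mock, AAV-sgSCR (adeno-associated virus carrying a control guide) and AAV-sgBaat (the same kind of virus with a guide against Baat, the enzyme of hepatocytes that conjugates bile acids). The series design calls all livers tumor bearing, whereas the title of the mock sample says native liver, so the tumor status of mock cannot be settled from the labels. Livers were digested with collagenase and the immune cells were enriched on Percoll. T cells (CD45hi CD3+) and the remaining CD45hi cells were sorted and run together, so the share of T cells in a library was set at the sort. Each group had 1 library, so no difference between groups has a replicate check and no test was possible. All intervals are exact 95% intervals that cover counting error only. Those of ratios take each UMI as independent and leave out the spread between cells. They are too narrow where few cells hold most of the UMIs.

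A dividing cell copies its DNA in S phase and then passes through G2 into mitosis. Transcripts of replication genes rise before and during S phase, whereas those of mitotic cyclins, kinases and spindle proteins build up in G2 and M, so the balance of both groups describes which stage a population holds. In adult liver most immune cells rest, while activated T cells and the precursors of T cells, B cells and granulocytes divide.

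S genes and G2/M genes differed in the letters before their transcription starts, and 5 stretches show how. Of 39 genes, 33 had a promoter window in the RefSeq table (GRCm38.p6), 250 bases before to 50 bases after the start. Searched on both strands were the E2F letters (TTTCCCGC, TTTCGCGC, TTTGCCGC and TTTGGCGC), the CHR letters of late cell cycle promoters (TTTGAA and TTCGAA) and the NF-Y letters (CCAAT). E2F matches on opposite strands can overlap each other, as they do before Mcm5 and Mcm6. Below are 250 bases before the start of 2 helicase genes, of the mitotic kinase gene Cdk1, and of Ccnb2 and Cdc20, with matches in capitals. They lie at chr8:75109259-75109508 (Mcm5, + strand), chr1:128359706-128359955 (Mcm6, - strand), chr10:69352913-69353162 (Cdk1, - strand), chr9:70421555-70421804 (Ccnb2, - strand) and chr4:118437344-118437593 (Cdc20, - strand).
Mcm5: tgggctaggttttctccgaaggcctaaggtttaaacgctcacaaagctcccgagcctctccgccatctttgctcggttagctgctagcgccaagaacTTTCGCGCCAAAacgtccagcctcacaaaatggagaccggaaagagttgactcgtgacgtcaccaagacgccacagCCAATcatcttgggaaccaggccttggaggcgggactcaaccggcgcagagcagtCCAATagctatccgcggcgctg
Mcm6: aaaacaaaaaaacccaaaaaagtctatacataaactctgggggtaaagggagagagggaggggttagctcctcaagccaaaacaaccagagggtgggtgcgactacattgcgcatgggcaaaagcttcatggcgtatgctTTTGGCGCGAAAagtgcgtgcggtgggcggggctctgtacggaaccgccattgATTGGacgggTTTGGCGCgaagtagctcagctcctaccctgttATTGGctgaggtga
Cdk1: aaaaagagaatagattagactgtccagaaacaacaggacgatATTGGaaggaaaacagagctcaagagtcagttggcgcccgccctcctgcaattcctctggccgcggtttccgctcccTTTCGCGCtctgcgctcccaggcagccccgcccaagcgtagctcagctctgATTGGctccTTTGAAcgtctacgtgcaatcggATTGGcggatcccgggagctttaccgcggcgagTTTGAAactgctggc
Ccnb2: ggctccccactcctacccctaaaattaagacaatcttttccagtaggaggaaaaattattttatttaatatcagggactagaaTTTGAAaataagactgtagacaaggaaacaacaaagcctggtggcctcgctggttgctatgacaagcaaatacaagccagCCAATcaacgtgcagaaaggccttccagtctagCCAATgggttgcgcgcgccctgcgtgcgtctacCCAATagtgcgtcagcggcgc
Cdc20: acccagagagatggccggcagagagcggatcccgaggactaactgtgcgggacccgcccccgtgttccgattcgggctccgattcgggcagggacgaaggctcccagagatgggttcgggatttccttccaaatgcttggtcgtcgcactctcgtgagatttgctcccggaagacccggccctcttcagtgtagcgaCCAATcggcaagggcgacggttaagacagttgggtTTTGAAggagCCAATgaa

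E2F letters stood in the windows of 5 of 12 matched S genes (Mcm3, Mcm5, Mcm6, Mcm7 and Pclaf) and of 1 of 20 matched G2/M genes (Cdk1), against 2.26% of all 32851 windows. CHR letters stood in 16 of 20 G2/M windows and in 2 of 12 S windows (Mcm2 and Mcm7), against 19.2% of all. The same 16 G2/M genes and 2 S genes also held CCAAT, a pairing found in 7.52% of all windows. A match describes the letters and is neither a binding site nor a cause of any level below.

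After filtering (at least 500 genes, at least 1000 gene UMIs and at most 10% mitochondrial UMIs) 6068, 7332 and 7094 barcodes remained in mock, AAV-sgSCR and AAV-sgBaat, with medians of 4164, 5911 and 3812 UMIs. Between 10 and 25 of the deposited barcode sequences were shared by any pair of libraries. Baat itself, which is transcribed in hepatocytes, had 5, 15 and 1 UMIs in the 3 libraries, too few to check the guide. The AAV-sgBaat library stood apart in RNA of immature T cells: Dntt and Arpp21, transcripts of that stage, summed to 9.66, 55.9 and 384 CPM (counts per 1000000 gene UMIs) over all barcodes. Lineages below are names for barcodes past a threshold of marker UMIs (for CD8 T, 2 or more UMIs from the CD3 genes together and 2 or more from Cd8a plus Cd8b1, none from Cd4 and none from the immature T genes), and barcodes past the thresholds of several lineages were kept apart as mixed.

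Cycling barcodes were counted after each barcode was thinned to 1000 gene UMIs, as those with at least 3 UMIs of the 37 S and G2/M genes. Over all barcodes 1.76% (1.45 to 2.13) were cycling in mock, 11.3% (10.5 to 12.0) in AAV-sgSCR and 37.7% (36.6 to 38.8) in AAV-sgBaat. Without thinning the same minimum gave 25.7%, 37.7% and 58.9%. The class is a range and not a cell type: 43, 156 and 546 barcodes held exactly 3 thinned UMIs, and 274, 369 and 668 held 2. Among barcodes with no UMI of the 5 immature T genes nor of Hes1, Gm525 and Lgals7, 3 further transcripts of those cells, 1.85% of 5081, 9.32% of 6083 and 16.0% of 2970 were cycling.

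**Figure D1:**
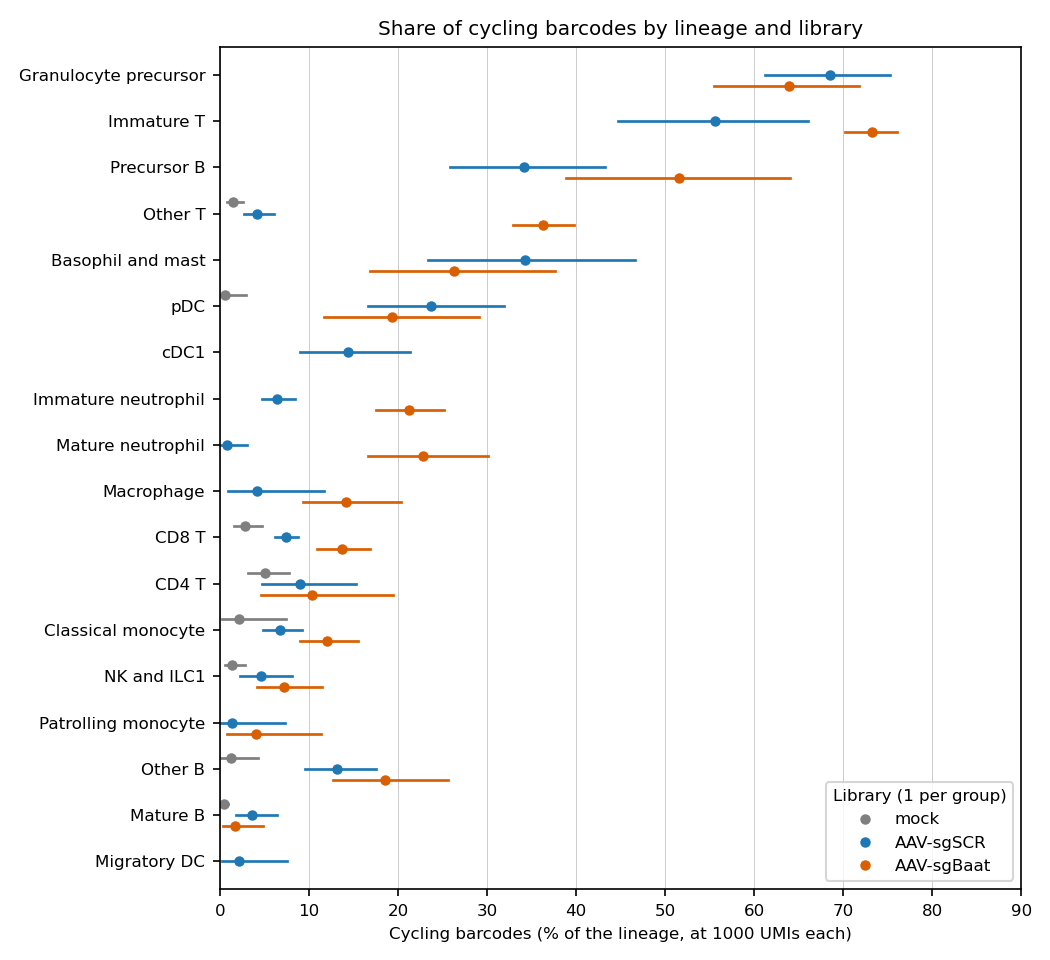
Share of cycling barcodes (percent of the lineage, x axis) by lineage and library, as points with exact 95% intervals. CD8 T barcodes lie at 2.87%, 7.41% and 13.7% in mock, AAV-sgSCR and AAV-sgBaat, and immature T barcodes reach 73.2% in AAV-sgBaat.

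Lineages that should not divide differed in this share, which sets the background. Mature neutrophils, which have left the cycle, had 2 cycling of 238 barcodes in AAV-sgSCR (0.84%, 0.102 to 3.00, median 2634 UMIs) and 37 of 162 in AAV-sgBaat (22.8%, 16.6 to 30.1, median 1892 UMIs). In the same AAV-sgBaat library mature B barcodes had 1.69% (0.351 to 4.87, median 2103 UMIs), so the share was not a common one. The AAV-sgBaat neutrophil barcodes carried Dntt and Arpp21 at 96.8 CPM against 4.99 CPM in AAV-sgSCR, and 7.41% of them were among the highest doublet scores. The number of barcodes taken as highest was fixed by library size, 403 of all 7094 in AAV-sgBaat and 430 of 7332 in AAV-sgSCR. Without immature T RNA their share was 7.62% against 0.44%. Shares are therefore also given below among barcodes without immature T RNA. Immature T and precursor B were exempt, since their cells express such genes themselves. Plasmacytoid dendritic cells, which can also express Dntt and Arpp21, were not exempt. The choice also drops barcodes that hold Hes1, Gm525 or Lgals7 alone. AAV-sgSCR macrophages had 70.1 CPM of those genes and 0 CPM of Dntt and Arpp21, and 5081 of 6068 mock barcodes were kept. What part of the dropped barcodes held RNA from immature T cells was not tested.

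CD8 T barcodes, the cytotoxic lineage, numbered 522 in mock, 1673 in AAV-sgSCR and 541 in AAV-sgBaat, with medians of 5855, 5040 and 4044 UMIs. The T marker genes summed to 2225, 3253 and 3059 CPM in them. Cycling barcodes made up 15 of them in mock (2.87%, 1.62 to 4.70), 124 in AAV-sgSCR (7.41%, 6.20 to 8.77) and 74 in AAV-sgBaat (13.7%, 10.9 to 16.9), and the 3 intervals did not overlap. Exactly 3 UMIs were held by 4, 35 and 21 of them, and 2 UMIs by a further 20, 98 and 39 barcodes. Unthinned shares were 37.2%, 36.4% and 40.5%, and the intervals of AAV-sgSCR and AAV-sgBaat then overlapped. Without immature T RNA the shares were 2.92%, 7.34% (6.11 to 8.72) and 11.4% (8.62 to 14.7), the order stayed and the intervals of AAV-sgSCR and AAV-sgBaat overlapped. The AAV-sgBaat share lay below that of mature neutrophils in its own library (22.8%) and above that of mature B barcodes (1.69%). Hes1, Gm525 and Lgals7 summed to 2.96, 18.3 and 56.2 CPM in CD8 T barcodes, and barcodes among the highest doublet scores made up 0.96%, 1.26% and 3.51%. Neutrophil marker genes summed to 4.1, 393 and 214 CPM in them, and the part of neutrophil RNA in the difference was not tested.

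From mock to AAV-sgSCR all 39 genes were higher in CD8 T barcodes, where 58.3% of all 10836 genes counted were higher. A gene was counted in a comparison when both libraries together held at least 20 of its UMIs, and called past 1.5-fold on its CPM ratio alone. Of the 39, 24 were past 1.5-fold, against 22.9% of all genes, and the median log2 ratio was 0.67 against 0.12 over all genes. The median was 0.82 for G2/M genes and 0.34 for S genes. The summed level of the 37 genes went from 841 to 1320 CPM, a ratio of 1.57 (1.51 to 1.63).

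Genes of both groups led that comparison, while Pcna and Mcm2 lay lowest. Tyms, which makes thymidylate, had 11.6 CPM in mock and 36.3 CPM in AAV-sgSCR, a ratio of 3.14 (2.25 to 4.49). Cenpf, a kinetochore protein, had a ratio of 2.84 (2.09 to 3.95). Stmn1, which destabilizes microtubules, stood at 74.9 and 208.7 CPM, a ratio of 2.79 (2.44 to 3.19). At the other end were Pcna, the sliding clamp of DNA polymerase, with 117.3 and 118.2 CPM, and Mcm2, a subunit of the replicative helicase, with 22.2 and 22.6 CPM. The intervals of both ratios (0.90 to 1.13 and 0.78 to 1.34) included 1. The lowest G2/M gene was Aurka, a spindle kinase, at a ratio of 1.07 (0.58 to 2.06).

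From AAV-sgSCR to AAV-sgBaat the S genes stood out in turn. In CD8 T barcodes 34 of 39 genes were higher, where 43.2% of 10729 genes were, and 13 were past 1.5-fold higher, against 6.4% of all genes. None was past 1.5-fold lower, where 12.7% of all genes were. The median log2 ratio was 0.38 against -0.06 over all genes, 0.76 for the S genes and 0.30 for the G2/M genes. The sum of the 37 genes was 1320 CPM in AAV-sgSCR and 1757 CPM in AAV-sgBaat, a ratio of 1.33 (1.29 to 1.38). Among barcodes without immature T RNA 7 of 39 genes were past 1.5-fold higher, against 5.05% of all genes, and the sum had a ratio of 1.22. Within cycling barcodes alone 2 were past it higher and 6 lower, against 9.43% and 16.2% of all genes, with a ratio of 0.93.

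**Figure D2:**
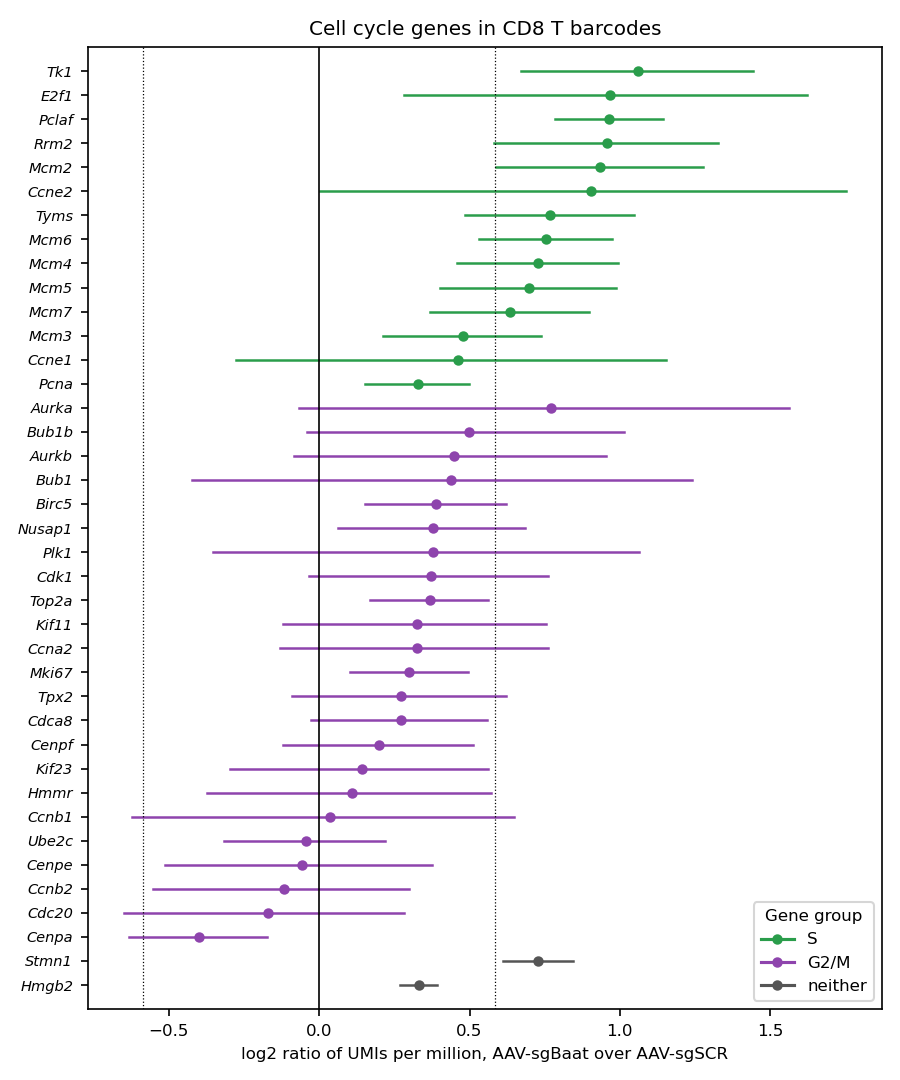
Log2 ratio of CPM in AAV-sgBaat over AAV-sgSCR (x axis) for each of the 39 genes in CD8 T barcodes, with exact 95% intervals and dotted lines at 1.5-fold. S genes fill the high end, led by Tk1 at a ratio of 2.09, and Cenpa is the 1 gene whose interval lies below 1.

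Among the genes that supply DNA building blocks was Tk1, the member with the highest ratio, while Tyms lay below E2f1, Pclaf and Mcm2. Tk1, thymidine kinase, had 164 UMIs (17.2 CPM) in AAV-sgSCR and 89 UMIs (36.0 CPM) in AAV-sgBaat, a ratio of 2.09 (1.59 to 2.72). Rrm2, a subunit of ribonucleotide reductase, stood at 8.3, 19.1 and 37.2 CPM in mock, AAV-sgSCR and AAV-sgBaat, and Tyms at 11.6, 36.3 and 61.8 CPM. All 3 enzymes thus had their highest level in AAV-sgBaat, and the ratio of Rrm2 was 1.94 (1.495 to 2.51). Pclaf, which binds Pcna at replication forks, stood at 37.3, 79.5 and 155 CPM, a ratio of 1.95 (1.72 to 2.21), while Pcna itself stood at 117.3, 118.2 and 148.3 CPM, a ratio of 1.25.

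The 6 helicase genes were all higher, by unequal amounts. Mcm2 stood at 22.2, 22.6 and 43.2 CPM in mock, AAV-sgSCR and AAV-sgBaat, a ratio of 1.91 (1.502 to 2.42) over AAV-sgSCR. Mcm5 stood at 21.0, 34.9 and 56.6 CPM, and its ratio was 1.62. Mcm6, Mcm4 and Mcm7 had ratios of 1.69, 1.66 and 1.55, and Mcm3, at 1.39, was the only one under 1.5. Mcm2 was therefore a gene that barely differed between mock and AAV-sgSCR and was among the highest between AAV-sgSCR and AAV-sgBaat. Both comparisons share the AAV-sgSCR library.

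The genes that commit a cell to S phase were rare. E2f1, a transcription factor that drives replication genes, had 2.4, 6.2 and 12.1 CPM, a ratio of 1.95 (1.22 to 3.08) for AAV-sgBaat over AAV-sgSCR. Cyclin E binds the kinase that starts replication, and of its genes Ccne2 stood at 3.6, 3.9 and 7.3 CPM and Ccne1 at 5.9, 7.0 and 9.7 CPM. The Ccne2 ratio was 1.87 with an interval of 1.002 to 3.37, so these counts hardly bound it.

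Most G2/M genes lay between 0.9 and 1.5 in the same comparison, and Aurka was the 1 of 23 past 1.5-fold, with an interval that included 1 (1.71, 0.96 to 2.95). Mki67, the proliferation antigen that coats mitotic chromosomes, stood at 44.4, 93.3 and 114.8 CPM, a ratio of 1.23 (1.07 to 1.41). Top2a, which untangles replicated DNA, stood at 56.9, 90.22 and 116.4 CPM, and Cdk1, the kinase that starts mitosis, at 10.1, 22.5 and 29.1 CPM; both had a ratio of 1.29. Ccnb1, the cyclin that activates Cdk1, was level between both AAV libraries, at 11.04 and 11.3 CPM. Cenpa, Cdc20 and Ccnb2 lay lowest. Cenpa, the histone of centromeres, stood at 101.9 and 77.2 CPM, a ratio of 0.76 (0.65 to 0.89). Cdc20, which triggers chromosome separation, had a ratio of 0.89 (0.64 to 1.22) and Ccnb2, another B-type cyclin, 0.92 (0.68 to 1.23). Of the genes whose promoter letters are printed, Mcm5 and Mcm6 hold E2F letters (ratios 1.62 and 1.69), Cdk1 holds E2F and CHR letters (1.29), and Ccnb2 and Cdc20 hold CHR without E2F letters. Members that are not printed break this order. Tk1, Rrm2, E2f1 and Mcm2 had higher ratios than Mcm5 and Mcm6 without E2F letters in their windows, whereas Pclaf, also higher, holds them. Mcm3, the lowest of the helicase genes, holds E2F letters too. No relation between letters and ratios was tested.

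Of the genes in neither group, Stmn1 had a ratio in the range of the S genes, 1.66 (1.53 to 1.79), at 208.7 and 345.5 CPM. Hmgb2, a chromatin protein abundant in many immune cells, stood at 641.8, 884.5 and 1112 CPM, a ratio of 1.26 (1.204 to 1.31). Hmgb2 had UMIs in 79.4% of the AAV-sgSCR CD8 T barcodes that were not cycling, Pcna in 32.9% and Mki67 in 8.8%. Pcna and Mki67 thus differed in where their RNA lay: 64.3% of Pcna UMIs and 20.4% of Mki67 UMIs came from barcodes outside the cycling class.

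The balance of S to G2/M UMIs followed from these ratios. In CD8 T barcodes S genes had 392, 537 and 870 CPM and G2/M genes 449, 783 and 887 CPM in mock, AAV-sgSCR and AAV-sgBaat. S over G2/M was 0.87 (0.81 to 0.94), 0.69 (0.66 to 0.71) and 0.98 (0.92 to 1.04). Within cycling barcodes, which carried 62.1%, 69.8% and 71.2% of the UMIs of the 37 genes, it was 0.40, 0.43 and 0.71. Of the cycling CD8 T barcodes, 53.3%, 33.1% and 51.4% held more S than G2/M UMIs.

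**Figure D3:**
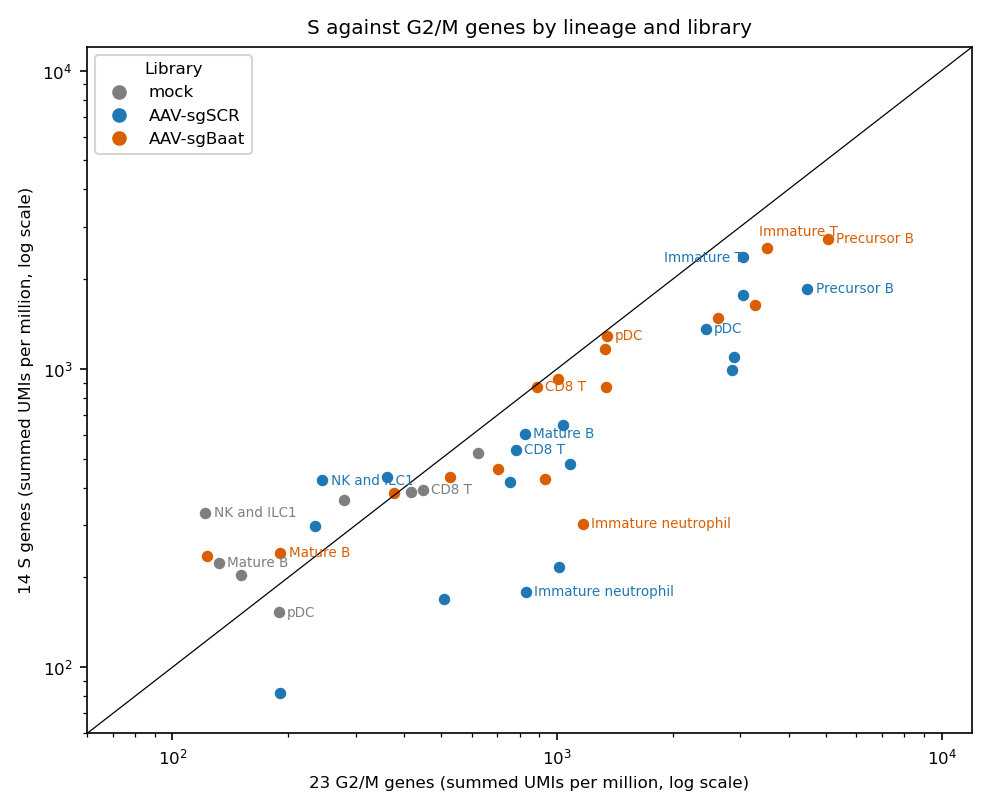
Summed CPM of the 14 S genes (y axis) against the 23 G2/M genes (x axis), both on log scales, for each lineage and library, with the diagonal marking equal sums. CD8 T moves from a balance of 0.69 in AAV-sgSCR to 0.98 in AAV-sgBaat, and immature neutrophils lie on the G2/M side at 0.22 and 0.26.

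The surface tags CD90.1 and CD90.2, antibodies to allelic forms of the T cell protein Thy1, split CD8 T barcodes further. CD90.1-dominant barcodes numbered 12 in mock, 1030 in AAV-sgSCR and 210 in AAV-sgBaat, and 7.57% (6.03 to 9.36) and 15.7% (11.1 to 21.4) of the latter groups were cycling. Among CD90.2-dominant barcodes 3.04% of 493, 7.06% of 623 and 12.0% of 316 were cycling. Without immature T RNA the CD90.1 shares were 7.47% and 12.0% (7.52 to 18.0) and the CD90.2 shares 3.10%, 7.03% and 10.8%.

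The S genes had higher ratios between both AAV libraries among CD90.1-dominant barcodes than among CD90.2-dominant ones, a difference that was not tested. The CD90.1 barcodes had 20 of 39 genes past 1.5-fold higher (10.2% of all genes), with a median log2 ratio of 1.16 for S genes and 0.25 for G2/M genes. Among CD90.2 barcodes 12 of 39 were past it (5.6% of all genes), with medians of 0.36 and 0.41. Mcm2 shows the contrast, with a ratio of 2.83 (1.97 to 4.02) in the former and 1.26 (0.89 to 1.77) in the latter. Tk1 reached 3.09 (2.17 to 4.36), Rrm2 2.89 (1.95 to 4.21) and Ccne2 4.23 (1.92 to 9.04) in CD90.1 barcodes. The Ccne2 ratio came from 19 UMIs in AAV-sgSCR and 13 in AAV-sgBaat. Cenpa had 0.73 (0.58 to 0.90) there and 1.41 (1.08 to 1.82) in CD90.2 barcodes, where Birc5, a subunit of the chromosomal passenger complex, reached 1.80 (1.41 to 2.29). The balance of S over G2/M was 0.55 (0.53 to 0.58) and 1.003 (0.916 to 1.098) in CD90.1 barcodes of AAV-sgSCR and AAV-sgBaat, and 0.857, 1.0005 and 0.946 in CD90.2 barcodes of mock, AAV-sgSCR and AAV-sgBaat. CD90.1 barcodes outnumbered CD90.2 barcodes in AAV-sgSCR and not in AAV-sgBaat. The part of this makeup in the balance of all CD8 T barcodes was not tested.

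Other cell cycle genes, from a list of G1 regulators and inhibitors, replication factors and mitotic proteins, split in the same manner in CD8 T barcodes. Between AAV-sgSCR and AAV-sgBaat 15 of 27 replication factors were past 1.5-fold higher and none lower, against 6.4% and 12.7% of all genes, with a median log2 ratio of 0.61. Of 42 mitotic genes 4 were higher and 2 lower past that fold, near the share of all genes for the higher ones, and the median was 0.21. Cdc6, which loads the helicase, led the replication factors at a ratio of 3.17 (1.85 to 5.38), and Rpa2 lay lowest at 0.85. Among mitotic genes Kif2c reached 1.73 and Kif20a 0.64. Of 22 G1 regulators and inhibitors 4 were higher and 4 lower, with E2f8 at 2.67 and the kinase inhibitor Cdkn2c at 0.61 (0.43 to 0.84). Ccnd2 and Ccnd3, cyclins of G1, stayed near level at 325.5, 297.3 and 310.0 CPM and at 143.9, 149.2 and 139.4 CPM, while Btg1, an antiproliferative gene of resting lymphocytes, stood at 1354, 1090 and 833 CPM.

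Among other T and innate lymphocytes the shares had the same order across libraries with fewer barcodes. CD4 T barcodes were cycling at 5.10% of 392, 9.02% of 133 and 10.4% of 77, with overlapping intervals (3.14 to 7.77, 4.75 to 15.2 and 4.59 to 19.4), and at 5.13%, 8.73% and 10.4% without immature T RNA. Of 30 genes counted between both AAV libraries 7 were past 1.5-fold higher (10.9% of all genes) and 5 lower (15.8%). Mcm6 had the highest ratio of them, 2.37 (1.37 to 4.11), and Nusap1, a spindle protein, the lowest, 0.25 (0.06 to 0.69, from 41 and 4 UMIs).

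NK and ILC1 barcodes, innate cytotoxic lymphocytes, showed the opposite weighting to CD8 T. Their cycling shares were 1.39%, 4.58% (2.31 to 8.05) and 7.24% (4.19 to 11.5), and 1.24%, 3.32% and 8.28% without immature T RNA. Of 25 genes counted 11 were past 1.5-fold higher in AAV-sgBaat over AAV-sgSCR (7.63% of all genes), with medians of 1.19 for G2/M genes and 0.06 for S genes. Ube2c, a ubiquitin conjugating enzyme of mitotic exit, had 17.7 and 58.5 CPM, a ratio of 3.30 (1.89 to 5.98), and Top2a 29.9 and 67.8 CPM, a ratio of 2.27 (1.43 to 3.65). Mcm6 was level at 54.2 and 54.5 CPM. S over G2/M was 2.71, 1.72 and 0.82, the other direction from the step between both AAV libraries in CD8 T; the difference between lineages was not tested.

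**Figure D4:**
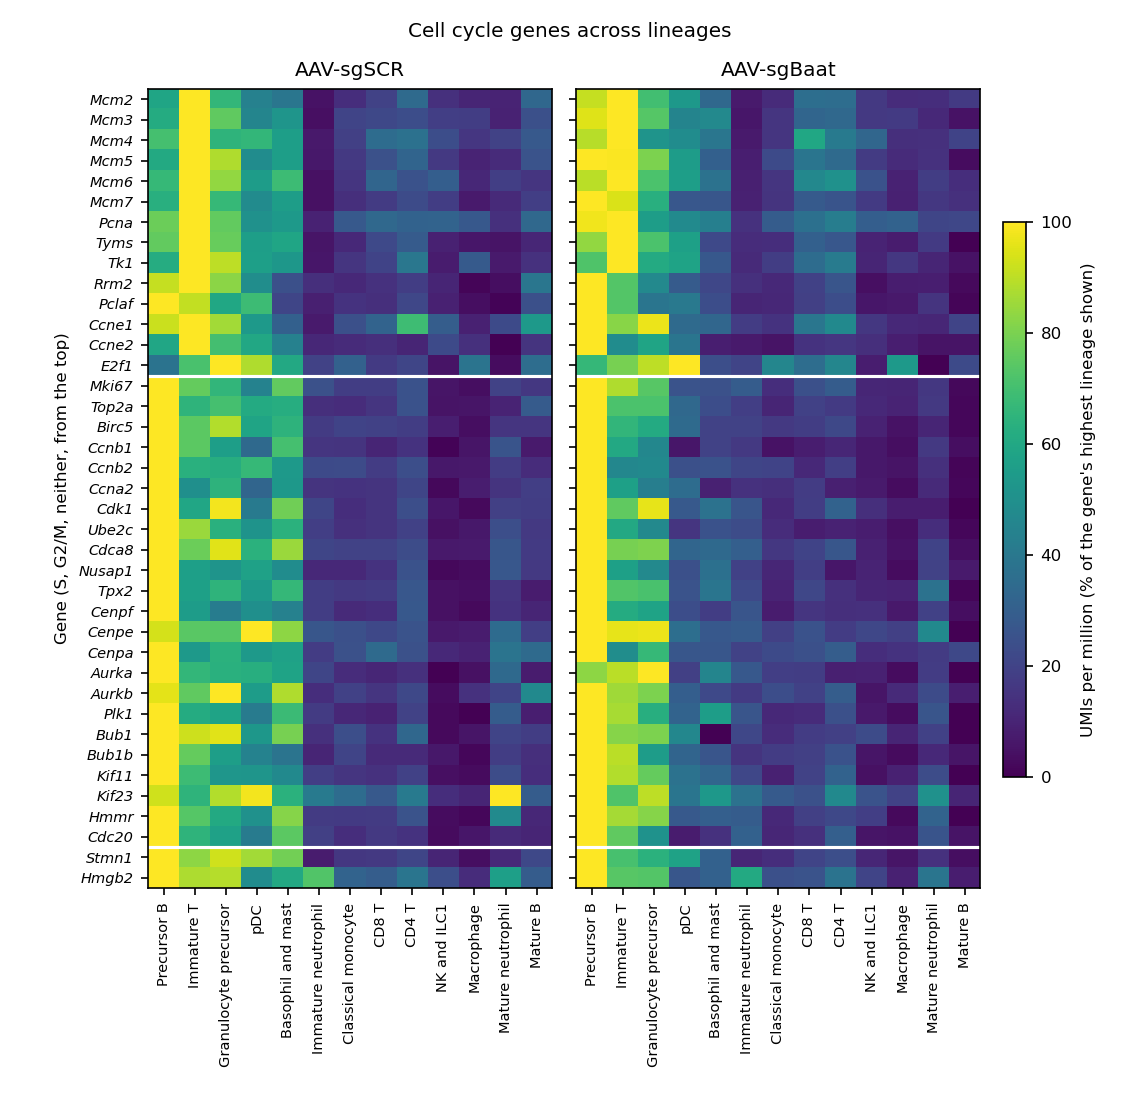
Level of each of the 39 genes by lineage in AAV-sgSCR and AAV-sgBaat, coloured as percent of the gene's level in its highest lineage shown. Precursor B barcodes hold the highest level of 23 genes in AAV-sgSCR and 30 in AAV-sgBaat.

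Precursors held the highest levels of nearly all members. Among lineages with at least 50 barcodes, 23 genes were highest in precursor B, 12 in immature T, 2 in granulocyte precursors, 1 in plasmacytoid dendritic cells and 1 in mature neutrophils in AAV-sgSCR. In AAV-sgBaat the numbers were 30, 7, 1, 1 and 0. The gene highest in mature neutrophils was Kif23, a kinesin of cytokinesis, at 78.6 CPM. Of its 63 UMIs there 51 came from the 236 barcodes that were not cycling, of which 17.8% had one, unlike Mki67, whose 81 UMIs lay in 3 barcodes.

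Immature T barcodes, defined by Dntt, Arpp21, Rag1, Rag2 and Ptcra, numbered 4 in mock, 90 in AAV-sgSCR and 888 in AAV-sgBaat. These genes mark T cell development, which takes place in the thymus. Of them 55.6% (44.7 to 66.0) were cycling in AAV-sgSCR and 73.2% (70.2 to 76.1) in AAV-sgBaat, with medians of 13419 and 8682 UMIs, and unthinned shares were 91.1% and 92.7%. At a limit of 5% mitochondrial UMIs the order turned, at 75.8% and 74.2%. Relative to all gene UMIs the genes were nearly level: none of 39 was past 1.5-fold in either direction (8.66% and 7.09% of all genes were), the median log2 ratio was 0.18 against 0.00, and the sum was 5416 and 6064 CPM, a ratio of 1.12 (1.09 to 1.15).

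Within that narrow span mitotic genes had the highest ratios, and the cyclin E genes and Mcm7 the lowest. Plk1, a mitotic kinase, had the highest ratio, 1.46 (1.12 to 1.93), at 47.4 and 69.4 CPM, and Ccne2 the lowest, 0.826 (0.582 to 1.1997), at 29.1 and 24.0 CPM. Mki67 had 391 and 415 CPM, Pclaf 529 and 597 CPM and Mcm2 115 and 119 CPM. Cdk1 stood at 89.5 and 121 CPM, a ratio of 1.35 (1.11 to 1.65). S over G2/M was 0.77 (0.74 to 0.81) and 0.72 (0.71 to 0.73). These barcodes made up 6.06% of the 825 cycling barcodes of AAV-sgSCR and 24.3% of the 2675 of AAV-sgBaat.

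**Figure D5:**
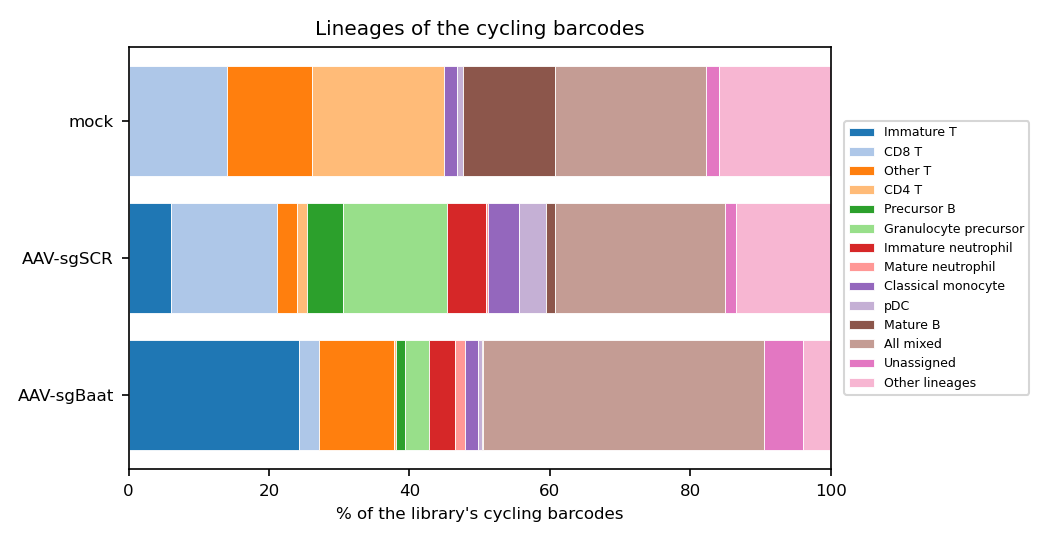
Makeup of the cycling barcodes of each library (percent, stacked by lineage). CD8 T made up 14.02%, 15.03% and 2.77% of them in mock, AAV-sgSCR and AAV-sgBaat, and mixed barcodes 21.5%, 24.2% and 40.0%.

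Mixed barcodes were the largest class among the cycling ones of AAV-sgBaat, at 40.0%. They hold markers of several lineages, and whether they are doublets or single cells with free RNA was not tested. Barcodes with T and neutrophil markers were cycling at 64.2% in AAV-sgBaat and at 40.2% without immature T RNA. Those with T and macrophage or monocyte markers went from 41.1% to 14.7%. T barcodes outside the CD8, CD4 and immature classes went likewise from 36.3% to 13.98% in AAV-sgBaat, against 4.13% and 2.98% in AAV-sgSCR.

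Granulocyte precursors, defined by Mpo, Elane, Prtn3 and Ctsg, cycled at like shares in both AAV libraries, 68.5% of 178 (61.2 to 75.3) and 63.9% of 144 (55.5 to 71.7), despite medians of 19948 and 6418 UMIs, and 72.0% and 64.8% without immature T RNA. Their summed level was 4804 and 4906 CPM, a ratio of 1.02 (0.99 to 1.05), and without immature T RNA the ratio was 0.94 (0.90 to 0.97). Aurka, at 27.9 and 44.4 CPM, was the 1 gene of 39 past 1.5-fold higher (1.59, 1.13 to 2.22; 8.03% of all genes). Ccna2, the cyclin of S and G2, was lowest at 80.3 and 55.9 CPM (0.70, 0.53 to 0.91). Mki67 had 336 and 347 CPM and Top2a 410 and 429 CPM, both with intervals that included 1.

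Immature neutrophils, the next stage, defined by Ngp, Camp and Ltf, differed between both libraries. Cycling shares were 6.41% of 718 (4.73 to 8.45) and 21.2% of 472 (17.6 to 25.2), and 6.21% and 18.2% (14.3 to 22.6) without immature T RNA. Cycling barcodes had a median of 12386 UMIs in AAV-sgSCR and 2053 UMIs in AAV-sgBaat, and 2.79% and 7.42% of the lineage were among the highest doublet scores. Of 38 genes counted 36 were higher (37.5% of all genes) and 16 past 1.5-fold (8.55%), with a median log2 ratio of 0.50 against -0.14.

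In immature neutrophils the few S transcripts had the highest ratios. Tyms stood at 9.38 and 25.8 CPM (2.76, 1.85 to 4.13), Tk1 at 4.99 and 12.3 CPM (2.46, 1.38 to 4.40) and Mcm6 at 8.38 and 18.8 CPM (2.25, 1.43 to 3.52). Ube2c, with 75.4 and 166 CPM, led the G2/M genes at 2.21 (1.91 to 2.55). Mki67 was near level at 127 and 136 CPM (1.07, 0.93 to 1.23), Ccna2 level at 18.8 CPM in both, and Cenpe, a kinesin of the kinetochore, lowest at 28.7 and 25.4 CPM. S over G2/M was 0.22 and 0.26, against 0.58 and 0.50 in granulocyte precursors, and 2 of 46 and 9 of 100 cycling immature neutrophil barcodes held more S than G2/M UMIs. The part of depth and of mixed droplets in these values was not tested.

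Precursor B barcodes cycled at 34.1% of 123 (25.8 to 43.2) in AAV-sgSCR and 51.5% of 66 (38.9 to 64.0) in AAV-sgBaat, with overlapping intervals. Of 39 genes 8 were past 1.5-fold higher (8.53% of all genes), 7 of them S genes and Ube2c the eighth. Among the S genes past it were Mcm5 at 85.8 and 146 CPM (1.70, 1.21 to 2.36) and Ccne2 at 17.2 and 49.2 CPM (2.87, 1.46 to 5.78). Ube2c stood at 402 and 722 CPM (1.79, 1.55 to 2.08). Mki67 and Top2a were near level, at 511 and 470 CPM and at 583 and 599 CPM. The medians were 0.57 for S genes and 0.07 for G2/M genes, and S over G2/M was 0.41 (0.39 to 0.44) and 0.54 (0.50 to 0.57).

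Plasmacytoid dendritic cells (pDC), which make type I interferon and seldom divide, had 1 cycling of 186 barcodes in mock (0.54%, 0.01 to 2.96), 23.7% of 131 (16.7 to 31.9) in AAV-sgSCR and 19.3% of 88 (11.7 to 29.1) in AAV-sgBaat. Without immature T RNA these were 0 of 86 (0 to 4.20), 22.8% of 57 and 15.2% of 46. All 37 genes counted between mock and AAV-sgSCR were past 1.5-fold higher (16.6% of all genes), and the sum went from 342 to 3794 CPM, a ratio of 11.1 (10.1 to 12.2). Pclaf stood at 3.19, 398 and 328 CPM in the 3 libraries and Mki67 at 8.3, 225 and 121 CPM. Both were thus nearly absent from mock pDC barcodes and lower in AAV-sgBaat than in AAV-sgSCR. Pcna had the smallest ratio of AAV-sgSCR over mock, 2.51. Dntt and Arpp21, which pDC can express, summed to 140, 177 and 190 CPM, already so in mock. The choice without immature T RNA thus also drops pDC barcodes for transcripts that pDC can express themselves.

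Between both AAV libraries the mitotic transcripts of pDC were lower in AAV-sgBaat and the S transcripts were near level on the median. Of 38 genes counted 19 were past 1.5-fold lower (14.4% of all genes) and none higher (7.53%), with medians of 0.12 for S genes and -0.90 for G2/M genes. Cdc20 had 61 and 5 UMIs (0.19, 0.06 to 0.46), Ccnb1 39 and 4 UMIs (0.24, 0.06 to 0.65), and Cenpe 107 and 31.7 CPM (0.30, 0.16 to 0.51). Mcm2 stood at 50.6 and 63.5 CPM (1.25, 0.78 to 1.99) and Tyms at 92.9 and 114 CPM. S over G2/M was 0.81, 0.56 (0.52 to 0.60) and 0.96 (0.85 to 1.07). Other genes of mitosis had the same pattern, with 17 of 34 past 1.5-fold lower, against 14.4% of all genes.

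Mature B barcodes had 14 cycling of 2720 in mock (0.51%), 11 of 305 in AAV-sgSCR (3.61%, 1.81 to 6.36) and 3 of 177 in AAV-sgBaat (1.69%, 0.35 to 4.87), and 0.55%, 2.21% and 1.49% without immature T RNA. The 11 cycling barcodes of AAV-sgSCR carried 78.6% of the UMIs of the 37 genes there, so every gene level in this lineage rests on a few barcodes. The sum stood at 356, 1433 and 432 CPM, and the ratio of AAV-sgBaat over AAV-sgSCR was 0.30 (0.26 to 0.35). It was 0.54 (0.44 to 0.65) without immature T RNA and 1.098 (0.89 to 1.35) among barcodes that were not cycling. Of 23 genes counted 18 were past 1.5-fold lower (18.1% of all genes): Top2a had 154 and 4 UMIs (0.06, 0.02 to 0.16) and Cdk1 25 and 0. Mcm6, level at 28.4 and 28.0 CPM, was highest.

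Among myeloid cells, classical monocytes cycled at 2.13% of 94, 6.80% of 544 (4.83 to 9.25) and 12.0% of 409 (8.996 to 15.5), and at 2.50%, 7.30% and 10.4% without immature T RNA. Their summed level was 1173 and 1164 CPM in the AAV libraries, a ratio of 0.99 (0.94 to 1.04), and 1152 and 1344 CPM without immature T RNA, a ratio of 1.17 (1.103 to 1.23). Ube2c was the 1 gene past 1.5-fold higher (1.65, 1.36 to 2.01; 4.95% of all genes) and 6 were lower (11.3%), led by Ccnb1 at 15.9 and 7.23 CPM (0.46, 0.24 to 0.82). Mki67 stood at 92.2 and 62.0 CPM. Macrophage barcodes cycled at 4.17% and 14.2%, and at 3.70% and 5.75% without immature T RNA. The macrophage sum was 531 and 760 CPM, a ratio of 1.43 (1.23 to 1.66), and without immature T RNA 587 and 410 CPM, a ratio of 0.70 (0.56 to 0.87).

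Basophil and mast barcodes cycled at 34.3% of 70 (23.3 to 46.6) and 26.3% of 76 (16.9 to 37.7). Without immature T RNA 14 of 48 (29.2%) and 3 of 46 (6.52%) were cycling, with medians of 6718 and 2814.5 UMIs. Of 37 genes counted 24 were past 1.5-fold lower in AAV-sgBaat, in a lineage where 38.2% of all genes were. The sum had a ratio of 0.56 (0.51 to 0.61), or 0.19 (0.15 to 0.23) without immature T RNA. The latter rests on few cycling barcodes, and the part of depth in these ratios was not tested. Mki67 had 387 and 117 CPM, Ccna2 78 and 3 UMIs, and Bub1, a spindle checkpoint kinase, 34 and 0 UMIs. Pclaf was the 1 gene past 1.5-fold higher (17.1% of all genes) at 122 and 194 CPM (1.59, 1.12 to 2.22). Type 1 conventional dendritic cells were numerous enough only in AAV-sgSCR, where 14.4% of 139 (9.02 to 21.3) were cycling, against 2.15% of 93 migratory dendritic cells (0.26 to 7.55).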

How the data were processed

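The values are raw UMI counts of genes in barcodes, as deposited by the authors, who made them with Cell Ranger 6.0.1, per the file headers, on mm10, per the submitters' processing notes. The labels name the 10x 3′ kit v2. They held 6431, 8073 and 9386 barcodes and 32005400, 62570529 and 48359443 gene UMIs (mock, AAV-sgSCR, AAV-sgBaat), of which 94.4%, 90.8% and 75.6% of barcodes passed the filters. The antibody tags in the same matrices (against F4/80, where the labels list a hashtag, and against CD90.1 and CD90.2) were used only to split CD8 T barcodes with at least 100 tag counts.

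Barcodes were classed by marker UMIs, thinned without replacement to 1000 gene UMIs, and summed by class and library. CPM are UMIs per 1000000 gene UMIs of the class. Shares have exact binomial (Clopper-Pearson) intervals, ratios exact conditional binomial ones, at 95%, and no test was run. Ratios need at least 20 UMIs over both libraries, and every member is counted where they do. No doublet caller was used, except that the highest Scrublet scores (scanpy 1.11.5) were removed as an alternative: 295, 430 and 403 barcodes. Ratio calls and ratio intervals were checked on simulated counts drawn independently, and the thinning on mock barcodes. Shares were not checked in this way, and the crowding of cell cycle UMIs in few barcodes was not simulated. Named are the 3 highest and 3 lowest members of a comparison, of the other cell cycle lists the extremes, and 15 members (such as Mki67, Mcm2 and Hmgb2) in any lineage; a few others, such as Kif23 in neutrophils, Cenpa in CD90.2 barcodes and the G1 genes outside the extremes, were named after their values were seen. A value of those lists that the rule would name is not reported here. Members and lists were chosen with earlier results of these data known, and the marker thresholds were set after seeing the data. Python 3.11.15, numpy 2.4.6, scipy 1.17.1 and pandas 2.3.3 were used. Barcodes of 1 library are not replicates.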

Additional observations from a re-analysis of the deposited data

Results flagged for a closer look

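The summed S and G2/M genes had a ratio of AAV-sgBaat over AAV-sgSCR of 1.33 in CD8 T barcodes, whereas 3 lineages lay past 1.5-fold on the other side. The ratio was 0.302 in mature B, 0.531 in patrolling monocytes (0.426 to 0.658) and 0.557 in basophil and mast barcodes. Among barcodes without immature T RNA these ratios were 0.54, 0.31 (0.22 to 0.43) and 0.19, against 1.22 in CD8 T. Their size and order thus moved with this choice, and the direction did not. The difference of each from CD8 T was not tested, since each group had 1 library.

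In patrolling monocytes 1 of 74 barcodes was cycling in AAV-sgSCR and 3 of 74 in AAV-sgBaat, and 1 of 42 and 0 of 28 without immature T RNA. The low ratio rests on that 1 AAV-sgSCR barcode: among barcodes that were not cycling the sums were 220 and 311 CPM, a ratio of 1.42 (1.06 to 1.88).

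Over 16 lineages 9 intervals of the summed ratio lay above 1 and 4 below, the fourth being that of pDC at 0.69. These intervals take UMIs as independent and leave out the spread between barcodes. Among barcodes without immature T RNA, with immature T and precursor B left out, 6 of 14 lay above 1 and 7 below. This choice also drops barcodes with Hes1, Gm525 or Lgals7 alone, and pDC barcodes for transcripts that pDC can express themselves. The ratio of T barcodes outside the CD8, CD4 and immature classes was 3.14 and 2.17 without immature T RNA. Mature neutrophils went from 1.104 to 0.48 and B barcodes outside the precursor, mature and plasma classes from 1.07 to 1.57. The neutrophil sums without immature T RNA were 972 and 466 CPM, with 1 cycling of 229 barcodes in AAV-sgSCR and 8 of 105 in AAV-sgBaat. The sum was thus lower in AAV-sgBaat while the share was higher. Over all AAV-sgSCR neutrophil barcodes 2 were cycling, and 1 of 81 Mki67 UMIs lay in the 236 others, so these ratios rest on very few barcodes.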

How the results depend on the processing

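The AAV-sgBaat share of cycling CD8 T barcodes lay above that of AAV-sgSCR in 13 of 13 alternatives, with overlapping intervals in 3 (no thinning, G2/M genes alone, and without immature T RNA). AAV-sgSCR lay above mock in all of these but no thinning. The shares that moved past their intervals, in mock, AAV-sgSCR and AAV-sgBaat, were 37.2%, 36.4% and 40.5% with no thinning, 6.17%, 12.99% and 23.98% when thinned to 2000 UMIs, 6.70%, 13.3% and 20.9% at 2 UMIs and 7.66%, 13.2% and 21.6% with Hmgb2 and Stmn1 counted. At 5 UMIs AAV-sgSCR and AAV-sgBaat had 4.54% and 8.13%, and by G2/M genes alone AAV-sgBaat had 8.69%. The summed CD8 T ratio of AAV-sgBaat over AAV-sgSCR was 1.17 with doublets removed, 1.27 with mixed barcodes put in their top lineage, 1.22 without immature T RNA and 0.93 within cycling barcodes. Genes past 1.5-fold numbered 7 and 2 in the latter settings. S over G2/M in AAV-sgSCR and AAV-sgBaat was 0.43 and 0.71 within cycling barcodes, 0.83 and 1.23 after thinning, 0.32 and 0.45 with the 6 Mcm genes alone, 0.37 and 0.53 without them, and in AAV-sgBaat 1.05 with doublets removed. The summed level was 1353, 2066 and 2729 CPM without mitochondrial and ribosomal genes, and 1554 CPM in AAV-sgBaat with doublets removed. In CD8 T barcodes not split by tag the S median stayed above the G2/M median in every ratio alternative run. Among CD90.2-dominant barcodes alone the S median lay below the G2/M median. The summed ratio turned from 0.56 to 1.28 in basophil and mast barcodes and from 3.14 to 0.91 in other T barcodes within cycling barcodes. Among barcodes not cycling it turned from 0.30 to 1.098 in mature B and from 0.53 to 1.42 in patrolling monocytes. Causes were not tested. Among immature T barcodes 9 of 10 alternatives kept AAV-sgBaat higher, with overlapping intervals in 4, and among immature neutrophils 11 of 11 did, with no overlap. Alternatives on immature T RNA, a second random draw, CD8 thresholds and non-cycling barcodes were chosen after seeing the data. No paired analysis was possible because each group has 1 library and no result comes from a test. Shares under the limit of counting in small lineages, such as 0 of 21 plasma cell barcodes in AAV-sgSCR, allow up to 16.1% by the exact interval.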

Other observations

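Regulators of G1 in CD8 T barcodes did not all follow the S genes. Cdk6, a kinase partner of cyclin D, stood at 45.0 CPM in mock, 165.0 CPM in AAV-sgSCR and 120.0 CPM in AAV-sgBaat, and Cdkn2a, which encodes an inhibitor of that kinase, at 2.4, 22.2 and 14.5 CPM. Both were thus highest in AAV-sgSCR, the library in which S over G2/M was lowest over all CD8 T barcodes. Within cycling barcodes and among CD90.2-dominant ones that balance was lowest in mock. Cdk4, the other partner of cyclin D, stood at 52.4, 78.9 and 94.6 CPM, the order of the S genes. Cdkn1b, an inhibitor of resting lymphocytes, stood in the reverse order at 142.5, 111.1 and 96.6 CPM.

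Plasma cell barcodes, defined by Jchain, Sdc1, Tnfrsf17 and Derl3, were few. Of them 3 of 32 were cycling in mock, 0 of 21 in AAV-sgSCR and 3 of 14 in AAV-sgBaat. B barcodes outside the precursor, mature and plasma classes were cycling at 1.21%, 13.2% and 18.5% in the 3 libraries.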
